A study of Mus musculus with 2 samples.

Results

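Vascular endothelial growth factors and their receptors were followed across the endothelial cells of mouse lymph nodes. The 8 genes were the receptor kinases Flt1, Kdr and Flt4, the co-receptors Nrp1 and Nrp2, and the ligand genes Vegfa, Vegfc and Pgf. They were taken by symbol from the count matrices, in which each symbol was found once, and are 8 of 32285 annotated genes. No measured value was used to choose them by this rule, although earlier results of these data were known when the family was proposed.

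The data are single-cell 3′ transcript counts from 2 droplet libraries of endothelial cells sorted from lymph nodes. Each library mixed 4 pools of cells that had been marked with antibody-borne oligonucleotide tags. The pools were peripheral nodes of wild-type (WT) mice, mesenteric nodes of WT mice, peripheral nodes of Xbp1-KO mice and mesenteric nodes of Xbp1-KO mice, so that each group of tissue and genotype has n = 2 pools, 1 from each library. Per the labels, all mice, WT included, had received tamoxifen, the drug that switches on inducible Cre recombinases. The labels name neither the Cre driver nor the deleted exons, and give no strain, age, sex or number of animals for a pool. The 2 pools of a group differ in Xist detection (below), so they hold different animals. With n = 2 and the number of animals not given, p-values measure the spread between these pools, which includes the sex and the library.

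Signalling in this family is divided by receptor. VEGFR2, the product of Kdr, carries most of the growth and permeability response of blood vessels to VEGF-A, while VEGFR1, the product of Flt1, binds VEGF-A and placental growth factor tightly and acts largely as a trap. VEGFR3, the product of Flt4, answers VEGF-C and is best known from lymphatic vessels, and the neuropilins are co-receptors that also bind class 3 semaphorins.

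Promoter sequences are shown for 4 receptor genes with different distributions: Flt1 and Nrp1, which were high in blood cells, Flt4, which was high in lymphatic cells, and Kdr, which was present in both. Each is the 250 bases before the annotated start, in gene orientation, from RefSeq on GRCm38.p6, where all 8 genes were matched. GENCODE M21, whose gene spans are given below, places the starts of Flt4 and Nrp1 further upstream, so that these 2 windows lie inside its gene spans. Capitals mark GGAA or its complement TTCC, the core letters bound by ETS factors, a family that includes regulators of endothelial genes.
Flt1: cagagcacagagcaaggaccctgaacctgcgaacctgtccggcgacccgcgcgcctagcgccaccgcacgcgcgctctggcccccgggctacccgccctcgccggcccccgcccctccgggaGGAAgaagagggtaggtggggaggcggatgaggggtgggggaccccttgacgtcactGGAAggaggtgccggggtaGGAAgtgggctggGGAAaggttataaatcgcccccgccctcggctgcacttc
Kdr: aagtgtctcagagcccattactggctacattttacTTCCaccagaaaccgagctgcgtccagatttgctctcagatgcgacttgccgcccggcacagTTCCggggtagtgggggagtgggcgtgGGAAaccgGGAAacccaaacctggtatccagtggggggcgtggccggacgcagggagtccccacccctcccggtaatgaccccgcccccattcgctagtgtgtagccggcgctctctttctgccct
Flt4: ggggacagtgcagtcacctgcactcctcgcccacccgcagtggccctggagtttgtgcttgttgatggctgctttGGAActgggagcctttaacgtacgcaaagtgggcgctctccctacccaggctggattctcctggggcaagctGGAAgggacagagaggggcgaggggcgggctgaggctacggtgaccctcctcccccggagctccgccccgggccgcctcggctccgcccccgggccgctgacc
Nrp1: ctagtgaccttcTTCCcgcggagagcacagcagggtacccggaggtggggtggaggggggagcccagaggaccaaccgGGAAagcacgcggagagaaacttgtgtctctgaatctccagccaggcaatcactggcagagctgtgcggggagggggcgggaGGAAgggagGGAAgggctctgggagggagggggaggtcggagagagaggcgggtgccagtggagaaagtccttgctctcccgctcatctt
The windows lie at chr5:147726012-147726261 on the minus strand for Flt1, chr5:75978456-75978705 on the minus strand for Kdr, chr11:49609429-49609678 on the plus strand for Flt4 and chr8:128358823-128359072 on the plus strand for Nrp1. GGAA was searched on both strands. Flt1, Kdr and Nrp1 each held 4 matches, which 33.4% of 27025 mouse promoters of this length reach or exceed. Flt4 held 2, a number that 76.9% of promoters reach. The Vegfa window held 6, as many as only 8.7% of promoters have, Nrp2 and Vegfc held 1 each, and Pgf held 0. The Pgf window also lies inside the GENCODE span of its gene, and the Nrp2 window does so in part. The cyclic AMP response element TGACGTCA was present in Flt1 alone, beginning 81 bases before the start, and in 1.62% of all promoters. The letters TGACGTGG of the unfolded protein response element were in 0 of the 8 windows and in 0.503% of promoters. These matches describe letters in a window and show no bound factor.

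In GENCODE M21 on GRCm38, Flt1 (ENSMUSG00000029648) spans chr5:147561604-147726011 and Kdr (ENSMUSG00000062960) chr5:75932827-75978458, both on the minus strand with 30 exons. Flt4 (ENSMUSG00000020357) lies at chr11:49609263-49652739 on the plus strand, also with 30 exons. Nrp1 (ENSMUSG00000025810) lies at chr8:128358604-128503363 and Nrp2 (ENSMUSG00000025969) at chr1:62703285-62818695, both on the plus strand with 17 exons. Vegfa (ENSMUSG00000023951) lies at chr17:46016993-46032369 on the minus strand with 8 exons, Vegfc (ENSMUSG00000031520) at chr8:54077606-54187096 on the plus strand and Pgf (ENSMUSG00000004791) at chr12:85166635-85177790 on the minus strand, each with 7 exons. Reads of Nrp1 and Nrp2 could be shared with small genes annotated inside them on the same strand, Mir1903 and Gm37121.

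Library 1 held 33024170 gene UMIs (unique molecular identifiers, which count captured RNA molecules) in 7709 barcodes and library 2 held 14744778 in 2903, with medians of 3655 and 4319 UMIs per barcode and 3 barcodes in common. After filtering, 9281 cells were used: 5318 blood endothelial, 3731 lymphatic endothelial, 194 non-endothelial and 38 dividing cells. Xbp1, the targeted gene, was lower in Xbp1-KO than in WT in 4 of 4 pairs of pools in lymphatic, other blood and high endothelial-like cells but was still counted in every Xbp1-KO sum. In lymphatic cells it stood at 47.3 to 53.7 CPM in Xbp1-KO and 101 to 122 CPM in 3 WT pools, while the WT mesenteric pool of library 2 was near the Xbp1-KO level at 54.9 CPM (24 UMIs). The other blood and high endothelial-like cells of that pool had 248 and 416 CPM, above the Xbp1-KO pools of their class. Xist was detected in 73.1% to 82.5% of cells of the Xbp1-KO pools of library 1 and in 76.8% to 85.4% of those in the library 2 WT pools, against at most 1.77% elsewhere. Genotype and sex therefore cannot be told apart within a library, while across the libraries they are crossed.

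Levels are given as CPM, the UMIs of a gene over all UMIs of the cells of a pool, scaled in the usual way for this unit. They compare cell groups for a single gene. They do not rank the genes against each other, since 3′ counts depend on how well each transcript end is captured. Clusters were built without the 8 genes, and a cluster level is the mean over pools with at least 10 of its cells.

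Flt1 marked blood endothelium and was highest in capillaries. The cluster led by Col13a1, capillary-like with 828 cells, stood at 2474 ± 264 CPM (SD, n = 7 pools), and its pools lay above those of every other cluster but the Igfbp3 capillary-like cluster, with which they overlapped. The capillary-like clusters led by Hspa1a, the next in the order (1839 ± 195 CPM, n = 8) and Igfbp3 (1807 ± 247 CPM, n = 8) overlapped each other, as did arterial-like cells (1438 ± 221 CPM, n = 8) and the Slc28a2 capillary-like cluster (1347 ± 333 CPM, n = 8). Below them came venous-like cells at 757 ± 282 CPM (n = 4), an unnamed blood cluster led by Prnd and Kit at 677 ± 232 CPM (n = 7) and high endothelial-like cells at 422 ± 142 CPM (n = 8), each overlapping the next. A gap without overlap then separated blood from lymphatic clusters. Among the latter the Nts cluster had the highest mean, 44.3 ± 40.5 CPM (n = 8), and the Ptx3 cluster the lowest, 2.59 ± 4.66 CPM (n = 7). The Nts pools (0.0 to 120 CPM) overlapped those of ceiling lymphatic-like cells (6.64 to 59.0 CPM). Their order rested on library 1: without it the means were 18.7 CPM in Nts and 34.2 CPM in ceiling cells. Without library 2 they were 69.9 and 15.6 CPM.

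Kdr was shared by both lineages. Its highest level, 1809.9 ± 191 CPM (n = 7), was again in the Col13a1 capillary-like cluster, but the Marco lymphatic-like cluster reached 1337 ± 302 CPM (n = 7) and stood between the Slc28a2 (1447 ± 355 CPM, n = 8) and Igfbp3 (1234 ± 144 CPM, n = 8) capillary-like clusters. Ptx3 lymphatic-like cells had 1076 ± 87.7 CPM (n = 7), ceiling lymphatic-like cells 832 ± 66.4 CPM (n = 8) and floor lymphatic-like cells 713 ± 306 CPM (n = 8). Down to the Nts lymphatic-like cluster at 605 ± 81.3 CPM (n = 8), neighbours in this order overlapped, except that the Ptx3 pools all lay above the ceiling pools. Venous-like cells (292 ± 91.4 CPM, n = 4) lay below the Nts cluster without overlap but overlapped floor cells, whose spread was wide, and high endothelial-like cells (238 ± 70.2 CPM, n = 8) were lowest.

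**Figure D1:**
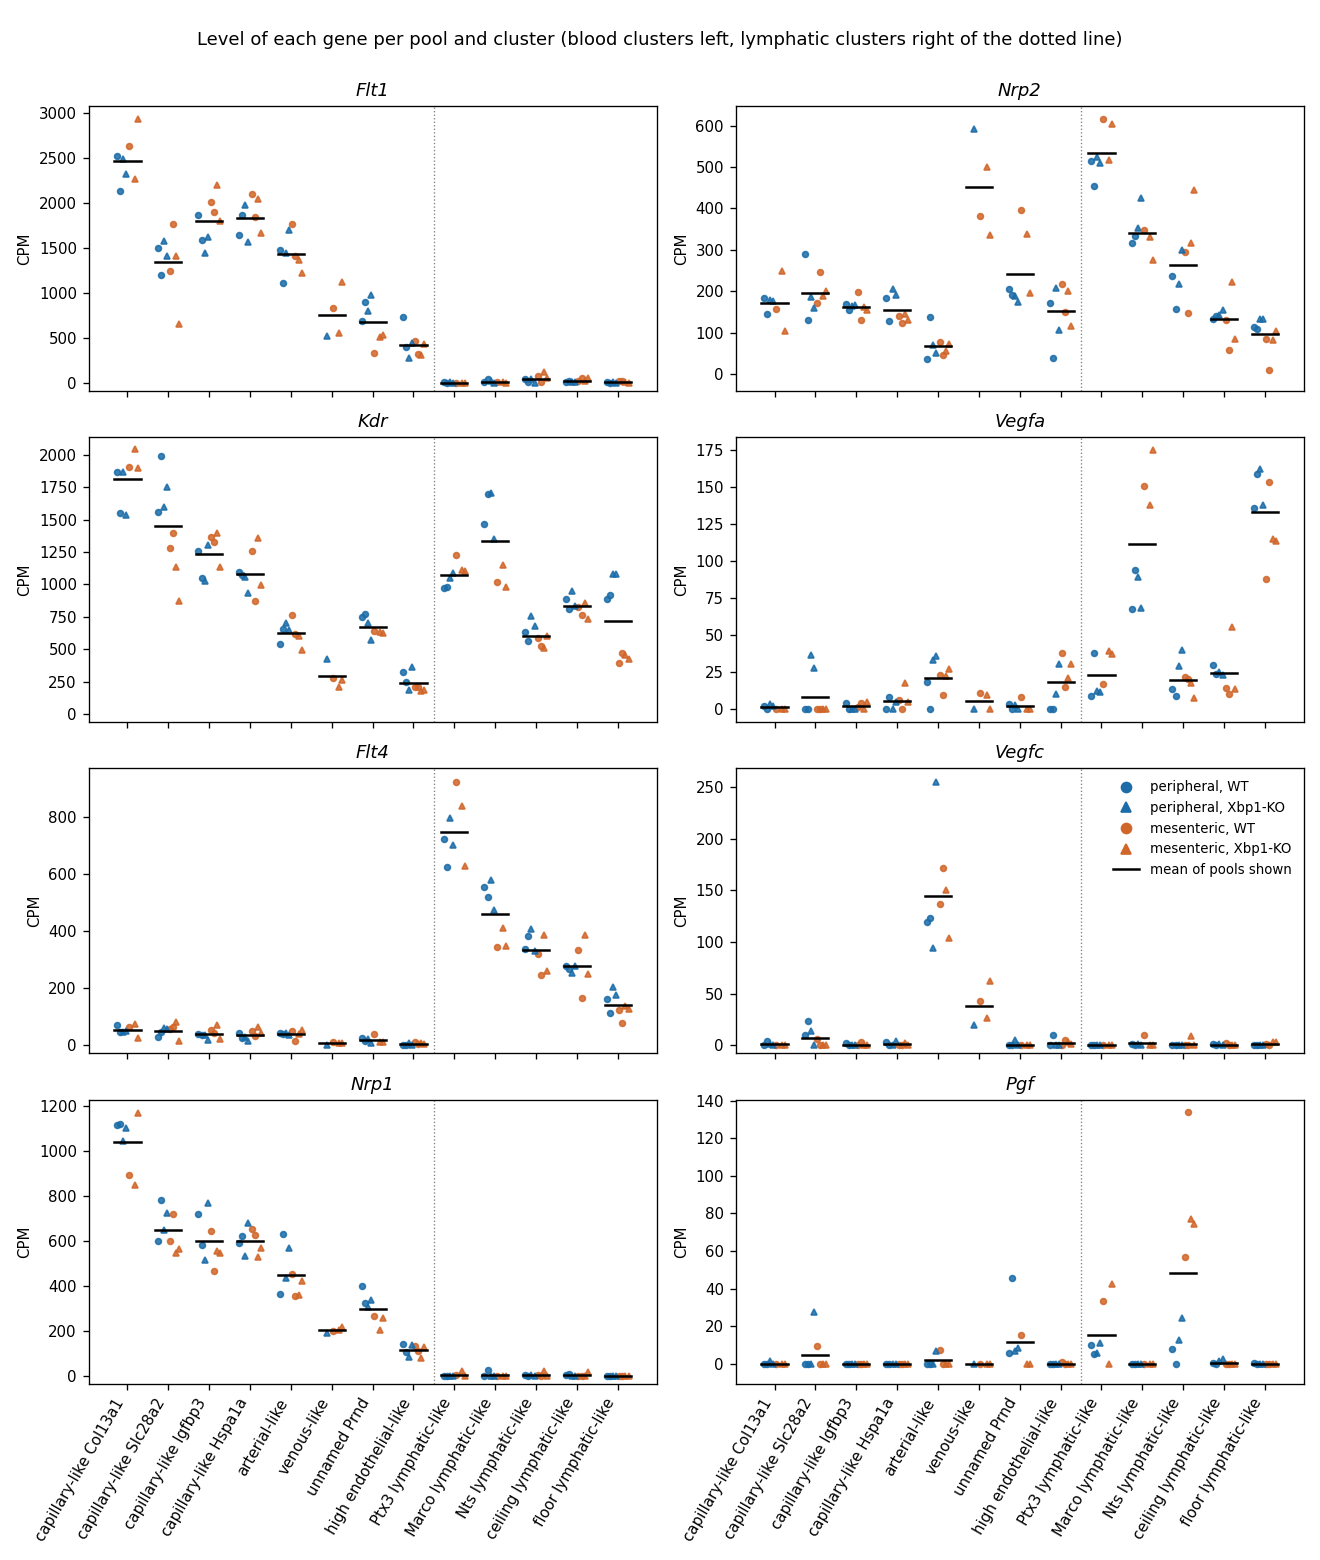
Levels of the 8 genes in the 13 endothelial clusters. Each point is a pool with at least 10 cells of the cluster (y axis, CPM), coloured by node with circles for WT and triangles for Xbp1-KO, and horizontal bars are means. Flt1 and Nrp1 are high in the blood clusters on the left and near 0 in the lymphatic clusters on the right, Flt4 is higher on the right, and Kdr spans both.

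Flt4 was higher in the lymphatic clusters. Ptx3 lymphatic-like cells had the highest level, 749.5 ± 111 CPM (n = 7), with no overlap with Marco lymphatic-like cells at 462 ± 96.1 CPM (n = 7). Nts cells followed at 334 ± 57.9 CPM, ceiling cells at 277 ± 64.4 CPM and floor cells at 140.2 ± 39.8 CPM (n = 8 each), so the lymphatic clusters themselves differed over a wide range. Blood clusters had lower means, and among them only the Slc28a2 capillary-like cluster (50.7 ± 20.7 CPM, n = 8) overlapped the floor pools. The Col13a1 cluster was highest within blood at 54.5 ± 16.8 CPM (n = 7) and high endothelial-like cells were lowest at 4.22 ± 4.22 CPM (n = 8). The latter overlapped venous-like cells (6.83 ± 4.69 CPM, n = 4). Without library 2 high endothelial-like cells had a mean of 6.53 CPM and venous-like cells 6.51 CPM.

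The co-receptors split as well. Nrp1 was highest in the Col13a1 cluster, 1041 ± 123 CPM (n = 7), without overlap with the Slc28a2 cluster at 648 ± 85.6 CPM (n = 8). High endothelial-like cells held 117 ± 23.9 CPM (n = 8), below every other blood cluster, and lymphatic clusters had means of 0.97 to 6.03 CPM. Nrp2 crossed the lineages: Ptx3 lymphatic-like cells at 535 ± 56.7 CPM (n = 7) overlapped venous-like cells at 452 ± 117 CPM (n = 4), followed by Marco lymphatic-like cells at 340.4 ± 45.3 CPM (n = 7). The lowest Nrp2 level was in arterial-like cells, 68.1 ± 31.3 CPM (n = 8), which overlapped floor lymphatic-like cells at 95.5 ± 39.8 CPM (n = 8).

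Among the endothelial clusters, the ligand genes were highest in different ones. Vegfa, the main blood vessel growth factor, was highest in floor (133 ± 26.0 CPM, n = 8) and Marco (111 ± 42.7 CPM, n = 7) lymphatic-like cells, which overlapped, with a gap to ceiling lymphatic-like cells at 24.1 ± 14.4 CPM (n = 8). Arterial-like cells reached 20.9 ± 11.8 CPM (n = 8) and the Col13a1 capillary-like cluster 0.918 ± 1.21 CPM (n = 7). Vegfc, the lymphatic growth factor gene, was highest in arterial-like cells at 144 ± 51.3 CPM (n = 8), without overlap with venous-like cells at 37.6 ± 19.1 CPM (n = 4), and was at 6.72 CPM or less in every other endothelial cluster. Pgf, which encodes a ligand of VEGFR1, was highest in Nts lymphatic-like cells at 48.4 ± 45.8 CPM (n = 8), a wide spread that overlapped Ptx3 lymphatic-like (15.4 ± 16 CPM, n = 7) and unnamed blood cells (11.7 ± 15.9 CPM, n = 7). In Marco lymphatic-like cells 0 Pgf UMIs were counted, which allows up to 0.931 CPM, and in Ptx3 lymphatic-like cells 0 Vegfc UMIs, which allows up to 1.38 CPM. These limits cover counting error only.

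Among the 13 endothelial clusters, the cluster means of Flt1 and Nrp1 ran together (Pearson r = 0.989 on log2 CPM + 1) and those of Flt1 and Flt4 ran opposite (r = -0.776). Flt1 and Kdr were unrelated in the same measure (r = -0.04), and Kdr and Flt4 had r = 0.574. These are descriptions over 13 clusters that come from the same pools and share library and depth. The 3 genes most like Flt1 among 8576 genes were Ly6a, Thrsp and Abcb1a (r = 0.988, 0.988 and 0.985), and those most like Nrp1 were Zfp366, Ly6a and Sparcl1 (r = 0.993, 0.992 and 0.991). Dnm2, Limd1 and Stard8 were most like Kdr (r = 0.927, 0.923 and 0.911), and Hsf2, Tia1 and Gmfb most like Flt4 (r = 0.988, 0.974 and 0.965). For Nrp2 they were Cnot7, Cnpy3 and F5 (r = 0.892, 0.835 and 0.809). For Vegfa they were Hyal2, Hspa13 and Lyst (r = 0.922, 0.894 and 0.893), for Vegfc Fez1, Cd2ap and Gm35167 (r = 0.929, 0.907 and 0.9), and for Pgf Polr2k, Creb5 and Oaf (r = 0.859, 0.834 and 0.808).

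Detection in single cells was compared at a common depth. Every cell was thinned to 2000 UMIs, and shallower cells were left out, so that clusters of different depth could be set side by side. A UMI of both Kdr and Flt4 was present in 35.2% of 3626 lymphatic and 5.76% of 3979 blood cells (64.0% and 9.8% without thinning). By cluster the share was 58.3% in Ptx3, 53.6% in Marco, 34.0% in ceiling, 31.1% in Nts and 22.7% in floor lymphatic-like cells, against 8.47% in the Col13a1 capillary-like cluster. In high endothelial-like cells it was 0 of 480 cells, which allows a share of up to 0.625% at the thinned depth. This class had a median of 7613 UMIs per cell, and without thinning 4.3% of its cells had both UMIs.

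In blood cells the common pairs were others. Kdr and Flt1 were both detected in 66.6% of blood and 1.68% of lymphatic cells, and Flt1 and Nrp1 in 53.6% and 0.165%. Flt4 and Nrp2, the receptor pair for VEGF-C, were both detected in 15% of lymphatic and 1.73% of blood cells. Among lymphatic cells with a Kdr UMI 45.2% also had Flt4, and among those without one 34.8% did. By cluster the shares were 46.3% and 34.1% in Nts, 31.2% and 22.6% in floor, 43.3% and 38.0% in ceiling and 58.2% and 56.1% in Marco lymphatic-like cells. In Ptx3 lymphatic-like cells the order was the other way, at 69.6% and 77.4%. In the B cell-like cluster (33 cells after thinning) Flt1 was detected in 27.3% of cells, Kdr in 24.2%, Nrp1 and Nrp2 in 12.1% each and Flt4 in 0%. This cluster also carried endothelial transcripts, with summed high endothelial markers at 49420.2 CPM and summed blood endothelial markers at 2351 CPM. Flt1 (2.21%) and Nrp1 (0.524%) were detected in fewer lymphatic than B cell-like cells, so this small cluster gives no common background level. Whether the few Flt1 and Nrp1 UMIs of lymphatic cells came from those cells or from free RNA was not tested.

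**Figure D2:**
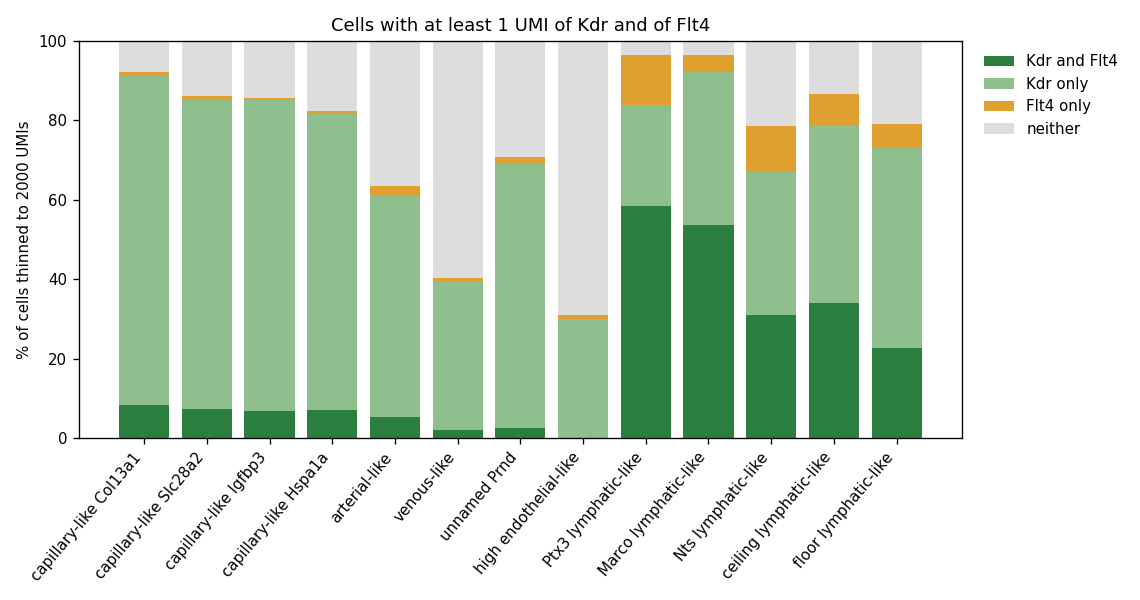
Share of cells with a UMI of both Kdr and Flt4 after thinning to 2000 UMIs (y axis, percent of cells) in the 13 endothelial clusters (x axis), stacked with the shares of cells with Kdr only, Flt4 only or neither. Ptx3 and Marco lymphatic-like cells stand highest at 58.3% and 53.6%, and high endothelial-like cells at 0%.

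Whether the family differs between lymphatic and blood endothelium was tested in the WT pools, with counts summed per library and pool. Of the 8 genes, 6 differed at an adjusted p under 0.05 in edgeR's quasi-likelihood test, 2 higher and 4 lower in lymphatic cells. In the same comparison 38.2% of 10909 tested genes were called, 21.1% as higher and 17.0% as lower.

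Flt1 stood at 1855 and 1459 CPM in blood cells of the peripheral WT pools (library 1, then library 2) and at 1523 and 1151 CPM in those of the mesenteric WT pools. In lymphatic cells the same pools had 13, 13.6, 23.65 and 20.59 CPM. The groups were far apart, with a log2 fold change of -6.62 ± 0.20 (SE; edgeR, adjusted p = 1.52e-10). Nrp1, whose product is a VEGF-A co-receptor, stood at 763.5, 653.7, 490.8 and 359.6 CPM in blood cells. Lymphatic cells of the same pools held 17, 11, 10 and 0 UMIs of Nrp1, at most 7.481 CPM, and the count of 0 allows up to 6.86 CPM. The fitted change was -7.25 ± 0.29 (edgeR, adjusted p = 5.86e-10).

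Kdr differed far less. Blood cells had 1338, 1102, 970.8 and 690.4 CPM of Kdr and lymphatic cells 960.4, 926.3, 694.8 and 633.6 CPM, in the same order of pools. Each pool was lower in lymphatic cells, but the 2 groups overlapped. The log2 fold change was -0.55 ± 0.15 (edgeR, adjusted p = 0.0096), and without library 1 it was -0.38 and no longer called (adjusted p = 0.19).

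Flt4 and Vegfa were the genes higher in lymphatic cells. Flt4 had 340.0, 312.2, 288.1 and 208.2 CPM in lymphatic cells against 47.89, 31.7, 40.84 and 21.04 CPM in blood cells, with no overlap and a log2 fold change of 2.77 ± 0.21 (edgeR, adjusted p = 1.1e-07). Vegfa had 68.22, 62.57, 71.38 and 66.34 CPM in lymphatic cells against 3.115, 1.093, 12.98 and 7.65 CPM in blood cells. Its lymphatic level hardly varied among pools, and the log2 fold change was 3.45 ± 0.23 (edgeR, adjusted p = 3.3e-08). Vegfc went the other way, with 23, 13, 61 and 42 UMIs in blood cells and 2, 0, 7 and 1 UMIs in lymphatic cells. The blood levels were 8.955 to 26.78 CPM, and the fitted change was -4.03 ± 0.43 (edgeR, adjusted p = 3.61e-06).

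Nrp2 and Pgf were not called. Nrp2 stood at 137.3 to 211.2 CPM in lymphatic and 134.5 to 184.4 CPM in blood cells, ranges that overlapped (log2 fold change 0.05 ± 0.17; edgeR, adjusted p = 0.867). Pgf had 11, 1, 25 and 20 UMIs in lymphatic and 2, 6, 9 and 1 in blood cells. Its change was 1.35 ± 0.72 (edgeR, adjusted p = 0.166), and with hashtags called by a ratio rule it turned to -0.25.

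Other genes of the pathway, from lists chosen with earlier results of these data known, were counted in the same fit, over which the median of all genes was 0.027. Of 28 tested partners and signalling genes of the receptors, 7 were higher and 9 lower in lymphatic cells, with a median of -0.08. Src, a kinase below VEGFR2, had 21.74 to 34.31 CPM in lymphatic cells and 0 UMIs in the blood cells of all 4 WT pools. Spry4 (-4.34 ± 0.30) and Spry1 (-2.98 ± 0.17), feedback inhibitors of receptor kinases, were lower in lymphatic cells (edgeR, adjusted p = 4.99e-08 and 9.22e-09). Of 17 tested VEGF-responsive and tip cell genes, 13 were lower and 3 higher, with a median of -1.84. Apln, with 5.1 to 28.42 CPM in blood and 0 UMIs in lymphatic cells, Esm1 (-7.36 ± 0.31) and Kcne3 (-5.61 ± 0.75), all tip cell genes, showed the largest differences (edgeR, adjusted p = 4.25e-06, 8.11e-10 and 5.15e-05).

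Among 9 tested semaphorins and plexins, 3 were higher and 5 lower, with a median of -0.4. Sema3d (6.85 ± 0.34) and Sema3a (6.40 ± 0.39), ligands of the neuropilin receptors, were higher in lymphatic cells, and Sema3g (-6.61 ± 0.26) was lower (edgeR, adjusted p = 2.12e-09, 1.36e-08 and 5.44e-10). Vegfb, another VEGFR1 ligand and the only one of the ligand partners with enough counts to be tested, was higher in lymphatic cells by 1.18 ± 0.18 (edgeR, adjusted p = 8.78e-05). The cells had been clustered on many of these genes, so their differences describe the lineages.

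High endothelial cells line the venules through which lymphocytes enter the node and are the cells named in the study's title. The class of other blood endothelial cells (4440 cells) leaves out the 390 cells of the unnamed cluster led by Prnd. Set against that class in the WT pools, the high endothelial-like class had less of all 3 receptor kinases and of Nrp1. These 4 of the 7 members tested were called, all as lower, where 17.6% of 8018 tested genes were called, 7.53% as higher and 10.0% as lower. Over all pools, the 104 venous-like cells of the other blood class overlapped high endothelial-like cells in Kdr, Flt1 and Flt4 but not in Nrp1. Mean Kdr was 292 CPM in venous-like and 238 CPM in high endothelial-like cells, and mean Flt4 was 6.83 and 4.22 CPM.

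Kdr stood at 323.8 and 245.8 CPM in peripheral and 211.4 and 209.5 CPM in mesenteric high endothelial-like cells of the WT pools. The other blood cells of these pools had 1481, 1294, 1218 and 1008 CPM. There was no overlap, and the log2 fold change was -2.01 ± 0.19 (edgeR, adjusted p = 1e-06). Flt1 had 728.5, 403.1, 463.6 and 323.1 CPM against 2098, 1725, 1902 and 1747 CPM, a change of -1.66 ± 0.21 (edgeR, adjusted p = 2.1e-05). Nrp1 had 141.7, 108.1, 136.9 and 110.4 CPM against 851.0, 797.9, 609.3 and 530.4 CPM, a change of -2.13 ± 0.21 (edgeR, adjusted p = 1.12e-06). For each of these receptors the high endothelial-like pools all lay below the other blood pools.

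Flt4 had 0 UMIs in both peripheral and 9 and 2 UMIs in the mesenteric high endothelial-like sums, against 31.78 to 53.66 CPM in the other blood cells. A count of 0 allows up to 30.4 and 29.5 CPM in the 2 peripheral sums. Flt4 was called (edgeR, adjusted p = 0.00153), but its fitted change of -5.35 ± 1.04 rests on those zeros and gives no size. Without library 1 it was -3.12 and not called (adjusted p = 0.0505), and without library 2 it was -2.2. Nrp2 had 17 and 4 UMIs in the peripheral sums, and 172.0, 39.32, 218.6 and 150.3 CPM over the 4 pools, against 122.7 to 176.5 CPM in other blood cells (0.19 ± 0.28; edgeR, adjusted p = 0.708). Vegfc had 0 UMIs in both library 1 WT high endothelial-like sums and 1 and 3 UMIs in those of library 2, so its fitted change of -2.25 ± 0.78 gives no size. It was not called (edgeR, adjusted p = 0.055), and passed with the pool as a replicate block (-2.34 ± 0.71; adjusted p = 0.00584). Vegfa could not be sized, with 0 UMIs in both peripheral high endothelial-like sums and 31 and 9 UMIs in the mesenteric ones.

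The pathway lists were counted beside a median of -0.099 over all genes. Of 15 tested VEGF-responsive and tip cell genes, 12 were lower and 0 higher, with a median of -2.06. Esm1 had 0 UMIs in high endothelial-like cells of all 4 WT pools against 130.4 to 211.3 CPM in other blood cells, Unc5b changed by -6.80 ± 0.67 and Cxcr4, the CXCL12 receptor, by -5.33 ± 0.87 (edgeR, adjusted p = 8.38e-08, 2.46e-06 and 0.00038). Of 26 signalling genes 8 were lower, 1 was higher and 17 were called in neither direction, with a median of -0.53: Sos1 changed by -2.56 ± 0.44, Spry4 by -2.37 ± 0.39 and Vav2 by 2.10 ± 0.51 (edgeR, adjusted p = 0.000438, 0.000294 and 0.0071). Of 6 semaphorins and plexins 4 were lower and 0 higher, with a median of -1.25. Sema3c had 0 UMIs in these cells against 16.09 to 44.0 CPM in other blood cells, Sema3g changed by -7.57 ± 0.66 and Plxnd1 by -1.48 ± 0.24 (edgeR, adjusted p = 0.000335, 5.04e-07 and 0.000242). Vegfb was higher, by 1.70 ± 0.41 (edgeR, adjusted p = 0.00741), with 2 to 58 UMIs in the WT high endothelial-like sums. As before, the cells were clustered on many of these genes.

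The second factor of the design is the site of the node. In lymphatic cells, mesenteric pools had more Pgf and less Kdr than peripheral pools. These were 2 of the 7 members tested, where 4.58% of 10699 genes were called, 2.65% as higher and 1.93% as lower. Vegfc was too low for the test, at 2.957 CPM or less in every lymphatic sum.

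Pgf had 11, 1, 11 and 10 UMIs in peripheral lymphatic cells, in the order WT library 1, WT library 2, Xbp1-KO library 1 and Xbp1-KO library 2, which is 2.345, 0.6801, 1.683 and 4.702 CPM. The mesenteric pools had 25, 20, 9 and 18 UMIs, or 10.56, 45.75, 10.29 and 10.89 CPM. The groups did not overlap, and the highest level, in WT mesenteric cells of library 2, stood well above the other 3. That pool is the one whose lymphatic cells had an Xbp1 level near that of Xbp1-KO. Nts cells made up 38.8% of its lymphatic cells and held all 20 of its Pgf UMIs. The part of either in its Pgf level was not tested. The log2 fold change was 2.77 ± 0.53, higher in 4 of 4 pairs of pools (edgeR, adjusted p = 0.00858). Leaving out library 1 gave 2.85 and leaving out library 2 gave 2.42, both called.

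Kdr had 960.4, 926.3, 1128 and 974.7 CPM in peripheral and 694.8, 633.6, 795.5 and 682.0 CPM in mesenteric lymphatic cells, again without overlap. The change was -0.43 ± 0.11, lower in 4 of 4 pairs (edgeR, adjusted p = 0.0437). Without library 1 it was -0.47 and not called (adjusted p = 0.435), and on sums thinned to the smallest it was -0.41 and not called (adjusted p = 0.104). Flt1, low in all lymphatic sums, had 3.291 to 13.6 CPM in peripheral and 18.76 to 24.0 CPM in mesenteric cells. Its change of 1.04 ± 0.29 missed the threshold (edgeR, adjusted p = 0.0573) and passed with the library as a replicate block (1.08 ± 0.25; adjusted p = 0.00632), where 12.4% of genes were called. Summed markers of blood endothelium in these lymphatic cells ranged from 1249 to 1558 CPM in peripheral and from 1503 to 1692 CPM in mesenteric pools, and their part in the Flt1 difference was not tested. Flt4 (-0.18 ± 0.14), Nrp2 (0.02 ± 0.14), Nrp1 (0.54 ± 0.54) and Vegfa (0.22 ± 0.13) were not called, with adjusted p from 0.379 to 0.963 (edgeR).

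**Figure D3:**
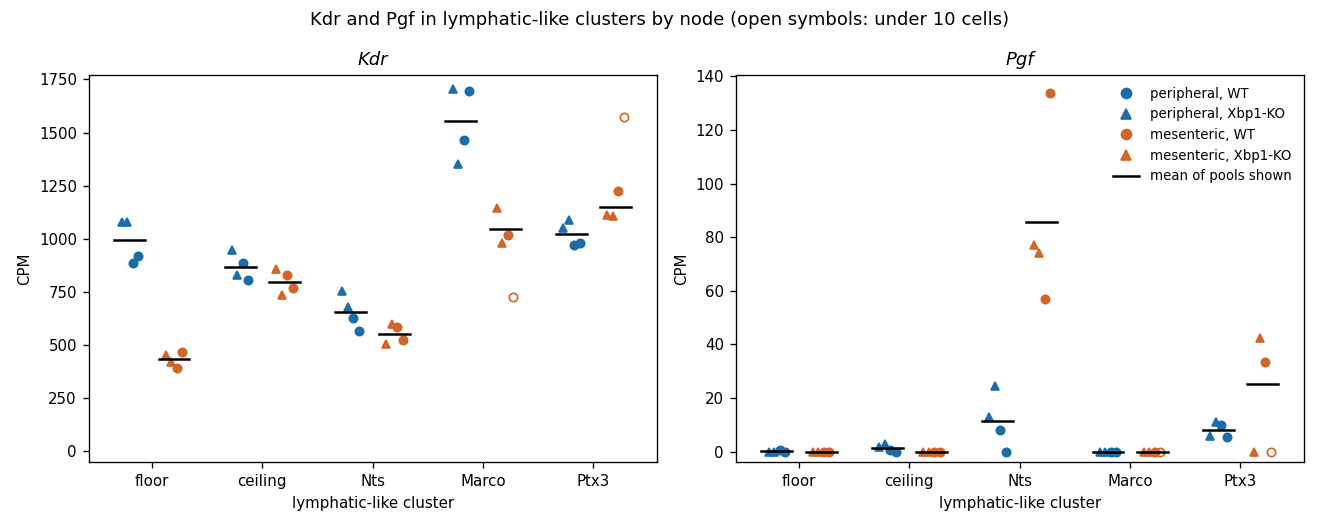
Kdr and Pgf in the 5 lymphatic-like clusters, by tissue. Each point is a pool (y axis, CPM), with peripheral and mesenteric pools side by side, open symbols for pools under 10 cells and horizontal bars for the means of the others. Kdr in floor cells lies between 888.4 and 1080.3 CPM in peripheral and between 394.4 and 468.1 CPM in mesenteric pools.

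Ceiling cells made up 29.3% to 44.2% of lymphatic cells in peripheral and 14.0% to 21.8% in mesenteric pools, and floor cells 23.1% to 35.6% and 26.9% to 42.1%. Among the 3 lymphatic clusters with at least 10 cells in all 8 pools, Kdr was called in the floor cluster. Floor lymphatic-like cells, named for the sinus floor next to the node parenchyma and led by Ccl20, Coch and Bmp2, had 888.4 and 920.1 CPM in peripheral WT pools and 1080.3 and 1079.8 CPM in peripheral Xbp1-KO pools. The mesenteric pools had 394.4 and 468.1 CPM in WT and 455.1 and 421.7 CPM in Xbp1-KO. The change of Kdr was -1.03 ± 0.13, lower in 4 of 4 pairs (edgeR, adjusted p = 8.03e-06), in a cluster where 14.3% of 8542 genes were called and 5.77% were called as lower. The call held without library 1 (-1.06) and without library 2 (-0.98). Summed lymphatic markers of floor cells were also lower in mesenteric pools (911 to 1283 CPM against 1825 to 2254 CPM) and summed mural markers higher (310.1 to 569.7 CPM against 223 to 306 CPM), both without overlap. In 7 of 8 of these pools 3 of the 5 mural markers were at 0, and in the other pool 1 was. Their part in the Kdr difference was not tested. In ceiling lymphatic-like cells, which face the node capsule, peripheral pools had 886.6, 806.3, 946.1 and 830.5 CPM and mesenteric pools 828.5, 766.5, 856.0 and 735.4 CPM. Those ranges overlapped, although Kdr was lower in 4 of 4 pairs here too, with a change of -0.07 ± 0.14 (edgeR, adjusted p = 0.862).

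The difference between the 2 effects was tested in a model of both clusters, added after these values had been seen. The log2 change of Kdr between tissues in floor cells minus that in ceiling cells was -0.97 ± 0.19 (edgeR, adjusted p = 0.00956 over 9245 genes). It was -0.92 without library 2 (adjusted p = 0.000131) and -0.97 without library 1, where it was not called (adjusted p = 0.469). Flt4, Nrp2 and Vegfa were not called in floor cells (-0.28 ± 0.16, -0.37 ± 0.19 and -0.28 ± 0.16; edgeR, adjusted p = 0.292, 0.224 and 0.279), though each was lower in 4 of 4 pairs.

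Pgf was also called within the Nts cluster. Nts lymphatic-like cells of peripheral pools held 3, 0, 4 and 5 UMIs of Pgf and those of mesenteric pools 21, 20, 9 and 10, which is 0 to 24.56 CPM against 56.78 to 133.9 CPM with no overlap. The change was 2.88 ± 0.55 (edgeR, adjusted p = 0.0109), in a cluster where 0.523% of 3631 genes were called. Without library 1 it was 2.62 and not called (adjusted p = 0.194), and with hashtags called by a ratio rule it was 2.72 and not called (adjusted p = 0.0612). DESeq2 gave no adjusted p for it. Pgf UMIs were counted in other lymphatic clusters too, with 6, 1, 4 and 3 in Ptx3 lymphatic-like cells of the peripheral and 4, 0, 0 and 8 in those of the mesenteric pools. The Nts cluster made up 9.95% to 38.8% of mesenteric and 7.34% to 12.2% of peripheral lymphatic cells. Flt1 was higher in mesenteric ceiling cells, by 1.65 ± 0.40 (edgeR, adjusted p = 0.0328; 1.6% of 7877 genes called), on 12, 6, 2 and 20 UMIs against 14, 12, 25 and 5. Without library 2 the value was 0.99 (adjusted p = 0.483), in DESeq2 it was 1.72 (adjusted p = 0.101), and with the ratio rule for hashtags it was 0.17 (adjusted p = 0.928). Summed blood endothelial markers in ceiling cells were 1569 to 2074 CPM in mesenteric and 1486 to 1905 CPM in peripheral pools, and their part was not tested.

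Marco lymphatic-like cells had only 6 cells in the WT mesenteric pool of library 2. Their Kdr levels were 1464, 1695, 1706 and 1350.3 CPM in peripheral and 1018, 727.5, 1146 and 978.8 CPM in mesenteric pools. Flt4 ran the same way, with 474.8 to 579.3 CPM in peripheral and 181.9 to 409.8 CPM in mesenteric pools. Vegfa ran the opposite way, with 67.01 to 93.44 CPM in peripheral and 101.0 to 174.8 CPM in mesenteric pools. For each of these genes the groups did not overlap. A fit over the 7 pools with at least 10 cells was added after these levels had been seen, and called 5.29% of 6544 genes, 2.51% as higher and 2.78% as lower. In it Kdr changed by -0.59 ± 0.16, Flt4 by -0.58 ± 0.17 and Vegfa by 0.97 ± 0.21 (edgeR, adjusted p = 0.0135, 0.0327 and 0.000928). All 3 calls held with the small pool added and without library 2, and without library 1 the 3 pools left give no test. Summed lymphatic markers of Marco cells were also lower in mesenteric pools without overlap, at 3516 to 4356 CPM against 4390 to 5373 CPM, and their part was not tested. In Ptx3 lymphatic-like cells, fitted in the same way, 0 of 3 tested members were called, and 0 had an unadjusted p under 0.05, where 3.3% of 5144 genes were called, and Kdr changed by 0.15 ± 0.14 (edgeR, adjusted p = 0.674).

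In other blood endothelial cells 0 of 7 tested members were called between tissues, in a comparison with 0.869% of 9900 genes called (0.394% as higher and 0.475% as lower) and 834 genes at an unadjusted p under 0.05. Nrp1 and Kdr were the nearest. Nrp1 had 851.0, 797.9, 696.0 and 873.2 CPM in peripheral and 609.3, 530.4, 490.3 and 536.7 CPM in mesenteric pools, without overlap. Its change was -0.56 ± 0.14 (edgeR, adjusted p = 0.102). With the library as a replicate block it was called (-0.56 ± 0.08, adjusted p = 0.00123), as it was in DESeq2 (adjusted p = 0.0424). Kdr had 1481, 1294, 1328 and 1311 CPM against 1218, 1008, 1144 and 910.1 CPM, likewise without overlap, and passed only in the blocked fit (-0.34 ± 0.06, adjusted p = 0.00462) and in fits of a single library. In the blocked fit 4.49% of genes were called, 2.51% as lower.

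Cluster shares among all blood endothelial cells, high endothelial-like and unnamed cells included, also differed between tissues. Their part in the Nrp1 and Kdr differences was not tested. The Col13a1 cluster, highest for Nrp1, Kdr and Flt1, made up 34.8%, 25.8%, 23.7% and 34.6% of blood cells in the peripheral pools and 3.05%, 1.49%, 1.83% and 1.6% in the mesenteric pools. Flt1 changed by -0.11 over the other blood class and was not called. Within the blood clusters with at least 10 cells in every pool, Nrp1 changed by -0.01 ± 0.16 in the Hspa1a, -0.23 ± 0.18 in the Igfbp3, -0.18 ± 0.21 in the Slc28a2 and -0.26 ± 0.21 in the arterial-like cluster (edgeR, adjusted p from 0.981 to 0.999). Kdr changed by -0.55 ± 0.19 in the Slc28a2 cluster, lower in 4 of 4 pairs but not called (edgeR, adjusted p = 0.652). The Col13a1 cluster had 36, 5, 11 and 10 cells in the mesenteric pools. Over its 7 pools with at least 10 cells, a fit added after the levels had been seen called 0 of 5 tested members, with 0 at an unadjusted p under 0.05, beside 0.173% of 5793 genes. Nrp1 changed by -0.33 ± 0.21, Kdr by 0.06 ± 0.20 and Flt1 by 0.02 ± 0.20 (edgeR, adjusted p = 0.797, 0.98 and 0.991), and with the pool of 5 cells Nrp1 changed by -0.04.

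**Figure D4:**
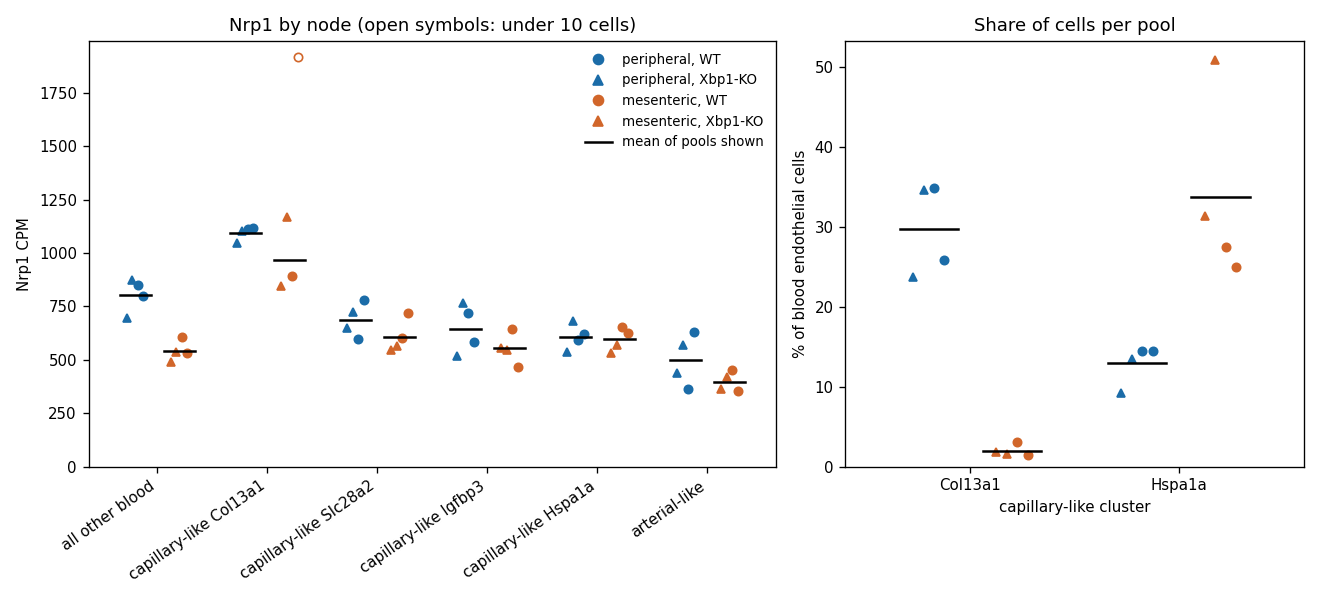
Nrp1 in other blood endothelial cells and their clusters by tissue (left, CPM), and the shares of the Col13a1 and Hspa1a clusters among blood endothelial cells (right, percent). Each point is a pool, open where it has under 10 cells, and horizontal bars are means. Nrp1 over all other blood cells lies between 696.0 and 873.2 CPM in peripheral and between 490.3 and 609.3 CPM in mesenteric pools, and the Col13a1 share falls from at least 23.7% to at most 3.05%.

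High endothelial-like cells gave 0 called members of 5 tested between tissues, where 0.327% of 5819 genes were called and 429 had an unadjusted p under 0.05. Kdr changed by -0.47 ± 0.24 and Flt1 by -0.24 ± 0.24 (edgeR, adjusted p = 0.699 and 0.921). The peripheral sums of this class were small, with as few as 11 cells. In the unnamed blood cluster led by Prnd, Flt1 was the 1 member of 4 tested that was called, where 0.866% of 2655 genes were called. In the order WT library 1, WT library 2, Xbp1-KO library 1 and Xbp1-KO library 2, it had 683.8, 898.5, 798.8 and 980.5 CPM in peripheral and 335.8, 324.2, 507.7 and 532.2 CPM in mesenteric pools, without overlap (-1.01 ± 0.22; edgeR, adjusted p = 0.0353), although the WT mesenteric sum of library 2 held only 7 cells. Without that pool Flt1 changed by -1.0 ± 0.25 and was not called in the plain edgeR fit. In the same pools it passed with the library as a replicate block (-0.92 ± 0.20) and without the low-count filter (-1.07 ± 0.28). Without library 1 (-1.08, adjusted p = 0.374) or library 2 (-0.85, adjusted p = 0.148) it was not called, and with the ratio rule (-0.32) or a coarser clustering (-0.23) the change was smaller. Summed blood endothelial markers of this cluster were lower in mesenteric pools too, 4602 to 5609 CPM against 6108 to 7246 CPM without overlap, while its lymphatic markers reached 1848 CPM in mesenteric and 898 CPM in peripheral pools. The lymphatic set includes Ccl21a, which was also the first leading gene of high endothelial-like cells, and Prox1 was detected in 3.08% of the cells of the unnamed cluster. The part of these markers in the Flt1 difference was not tested.

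The pathway lists were counted between tissues too. In lymphatic cells 5 of 12 VEGF-responsive genes were lower and 0 higher in mesenteric pools, with a median of -0.57 beside -0.012 over all genes, of which 1.93% were lower. The largest were the early response genes Egr3 (-1.37 ± 0.36) and Nr4a2 (-1.23 ± 0.31) and the calcineurin regulator Rcan1 (-0.77 ± 0.15; edgeR, adjusted p = 0.0487, 0.0418 and 0.00771). Ptprb, a phosphatase that acts on VEGFR2, was the 1 of 27 signalling genes called, a share near that over all genes (-0.48 ± 0.12; edgeR, adjusted p = 0.0352), and Sema3d was the 1 of 7 semaphorins and plexins (-0.50 ± 0.12; adjusted p = 0.031). In other blood cells, where 0.475% of all genes were lower, 2 of 17 VEGF-responsive genes were, Egr3 (-1.28 ± 0.17) and Adamts1 (-1.19 ± 0.20; edgeR, adjusted p = 0.00457 and 0.0175), with 0 of 26 signalling genes called. Egr3 was also among the leading genes of the Col13a1 cluster. Sema3f was the 1 of 8 semaphorins and plexins called there (-0.62 ± 0.12; edgeR, adjusted p = 0.04). In high endothelial-like cells 1 of 10 tested VEGF-responsive genes was lower in mesenteric pools and 9 were not called, with 0.155% of all genes lower, and in unnamed blood cells 1 of 13 was lower and 12 were not called, with 0.565% of all genes lower and a list median of 0.19. The gene was Nr4a1 in both (-1.70 ± 0.33 and -1.35 ± 0.27; edgeR, adjusted p = 0.0209 and 0.0238).

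The study compared Xbp1-KO with WT mice, and Xbp1 encodes a factor that switches on genes for protein folding and secretion. In none of the classes did a member pass the test between genotypes, and neither did any of the pathway genes in the lists. In edgeR, 0 of 10699 genes were called in lymphatic cells, 0 of 9900 in other blood cells and 0 of 5819 in high endothelial-like cells, a background of 0.0% each, while 609, 234 and 198 genes were below 0.05 before adjustment. In fits with a replicate block for library, 70, 14 and 0 genes were called (0.654%, 0.141% and 0.0%), again with 0 members, and DESeq2 called 0 members.

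In lymphatic cells Vegfa had 68.22 and 62.57 CPM in WT and 85.99 and 65.82 CPM in Xbp1-KO peripheral pools, and 71.38 and 66.34 CPM in WT and 93.73 and 84.12 CPM in Xbp1-KO mesenteric pools. Each Xbp1-KO pool was the higher of its pair, but the ranges overlapped, and the change of 0.26 ± 0.13 was not called (edgeR, adjusted p = 0.844). Kdr (0.13 ± 0.11), Flt4 (0.14 ± 0.14) and Nrp2 (0.22 ± 0.14) were also higher in 4 of 4 pairs without being called, and Flt1 changed by -0.33 ± 0.28, Nrp1 by -0.51 ± 0.53 and Pgf by -0.26 ± 0.56 (edgeR, adjusted p from 0.871 to 0.973). In other blood cells Vegfa rested on few counts, 7, 1, 16 and 3 UMIs in WT (3.295, 1.467, 5.852 and 3.288 CPM) and 17, 11, 13 and 14 UMIs in Xbp1-KO (8.391, 7.753, 11.26 and 6.944 CPM), listed as peripheral pools and then mesenteric pools. All Xbp1-KO pools lay above all WT pools, with a change of 1.16 ± 0.38 that was not called in the fit over all genes (edgeR, adjusted p = 1.0), nor with the library as a block (1.27 ± 0.36; adjusted p = 0.466). The other 6 tested members changed by -0.09 to 0.12 in these cells.

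In high endothelial-like cells Kdr changed by -0.15 ± 0.23, Flt1 by -0.37 ± 0.24, Nrp1 by -0.20 ± 0.25 and Nrp2 by 0.37 ± 0.36 (edgeR, adjusted p = 1.0 each). Their ranges of CPM overlapped between genotypes for all 4 receptors. Inside the clusters 0 of 39 pairs of member and cluster were called between genotypes. Of the 8 clusters tested, the floor cluster was the 1 with any gene called, 14 of 8542 (0.164%), and Flt1 there changed by -1.13 ± 0.53 (edgeR, adjusted p = 0.69). The effect of genotype did not differ between tissues for any member in lymphatic, other blood or high endothelial-like cells at the threshold (edgeR, adjusted p = 1.0). On simulated counts of the same depth, edgeR recovered 71% of the 2-fold and 99% of the 4-fold changes put into lymphatic sums, 73% and 94% in other blood sums, and 22% and 71% in high endothelial-like sums, so that 2-fold changes in the latter were mostly not detectable. The changes were put into random tested genes, and each pool was drawn independently without library, sex or tissue effects. The rates therefore do not give what was detectable for members with few counts.

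**Figure D5:**
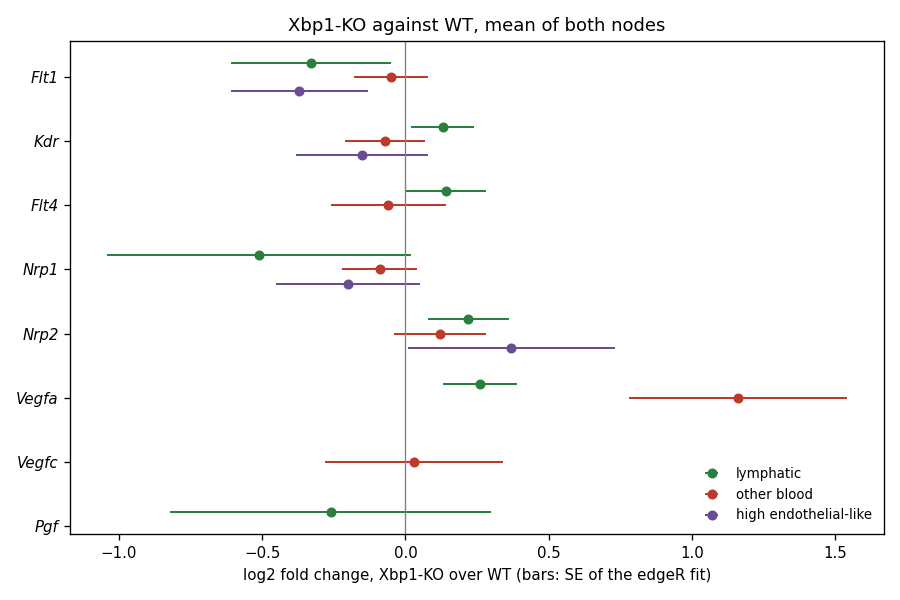
Change of each member between Xbp1-KO and WT (x axis, log2 fold change from edgeR, with bars for the SE) in lymphatic, other blood and high endothelial-like cells. The vertical line is 0. Vegfa in other blood cells lies farthest from it at 1.16 ± 0.38, and no value passed the adjusted test; Vegfa in high endothelial-like cells is not drawn because some of its sums hold 0 UMIs.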

How the data were processed

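Gene and hashtag counts of 2 droplet libraries were deposited by the authors as whole-number UMI counts per cell barcode; per the file headers they were made with Cell Ranger 6.0.1 (6.1 per the submitters' processing notes, on mm10). Counting error sets the precision of low levels, and limits for a count of 0 (3 counts) cover counting error only.

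Cells were assigned to pools with HTODemux (Seurat 5.3.0, quantile 0.99), kept with at least 500 genes and at most 10% mitochondrial counts, and cleared of doublets by scrublet (57 and 6 cells). They were clustered (scanpy 1.11.5, Leiden resolution 1) without the 8 genes, Prox1 and Xbp1, and named by markers. The members, lists and markers were chosen with earlier results of these data known. The text names the 8 members, at most the 3 largest called changes of each list and comparison, and the 3 genes most correlated with each member.

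UMIs were summed per library, pool and class and tested over all genes with edgeR 4.0.16 (quasi-likelihood, Benjamini-Hochberg adjustment, threshold 0.05, two-sided); DESeq2 1.42.0 was an alternative. R was 4.3.3. The 4 pools of a library were captured together per the labels, so fits with the library as a replicate block were also made: deviations from group means correlated between pools of a library at 0.064 to 0.226 (lymphatic), 0.157 to 0.411 (other blood) and 0.0073 to 0.212 (high endothelial-like). Other alternatives were fits without the low-count filter, thinned sums, a ratio rule for hashtags, a coarser clustering and leaving out each library. The tests were checked on simulated data.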

Additional observations from a re-analysis of the deposited data

Results flagged for a closer look

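The difference of Kdr between tissues was not alike in floor and ceiling lymphatic-like cells: the floor value minus the ceiling value was -0.97 on the log2 scale, tested as a difference in edgeR (adjusted p = 0.00956). It was not called without library 1 (adjusted p = 0.469).

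Flt4 in other blood cells moved in opposite directions between genotypes in the 2 tissues, with a mean log2 ratio of Xbp1-KO to WT of -0.23 in peripheral and 0.24 in mesenteric pools. The difference was tested as an interaction, 0.49 ± 0.41, and was not called (edgeR, adjusted p = 1.0).

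Nrp2 in high endothelial-like cells also moved in opposite directions, with a mean log2 ratio of 0.86 in peripheral and -0.24 in mesenteric pools. The interaction was -1.02 ± 0.72 and was not called (edgeR, adjusted p = 1.0), and the peripheral WT sums rest on 17 and 4 UMIs.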

How the results depend on the processing

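Of the single-member values under the alternatives, 185 kept their direction and their side of the threshold, 16 passed it newly, 17 lost it and 8 turned sign. Of 33 member values that passed in neither the plain nor the blocked fit, 18 changed sign under at least 1 alternative and 1 passed under at least 1. Among the former values the sign turned for Nrp2 between lymphatic and blood cells, to -0.02 with the hashtag ratio rule, -0.04 with the coarser clustering and -0.03 without library 2 (0.08 without library 1), and for Pgf in the same comparison, to -0.25 with the ratio rule. In Col13a1 cells the tissue values near 0 turned to -0.08 for Kdr and -0.12 for Flt1 without the low-count filter, and to -0.01 and -0.11 without library 2. The members called between tissues in lymphatic cells went from 2 to 0 on thinned sums, where Kdr lost its call and Pgf had too few counts to be tested. In other blood cells they went from 0 to 2 with the library as a replicate block, to 1 in DESeq2, to 1 without the low-count filter and to between 2 and 3 when a library was left out. The pairs of member and cluster called between tissues went from 3 to 1 in DESeq2, which gave no adjusted p for Pgf in Nts cells, and to 1 with the ratio rule. Cells with both Kdr and Flt4 went from 35.2% to 64.0% in lymphatic and from 5.76% to 9.8% in blood cells without thinning. The cause of these changes was not tested. The replicate block changed the calls of Flt1 in lymphatic, Nrp1 and Kdr in other blood and Vegfc in high endothelial-like cells, as given beside them. It also changed that of Flt1 in the unnamed blood cluster fitted without the WT mesenteric pool of library 2. Fits without a library leave 1 sample per group, which is assumed to vary like the others, and give no value for the interaction. The ratio rule and the coarser clustering left no high endothelial-like class, so they give no value there. Small high endothelial-like sums limit what was detectable.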

Other observations

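Outside the endothelial clusters, mural-like cells had a Vegfa level of 171 ± 103 CPM (SD, n = 5 pools), a range of 42.1 to 302 CPM. The same pools overlapped those of floor lymphatic-like cells, at 133 ± 26.0 CPM. The mural-like cluster also held fibroblastic stromal markers, which summed to 10792 CPM against 4834 CPM for its mural markers. Nrp2 in dividing cells was 224.4 and 1350.4 CPM in the 2 pools with at least 10 of them, too few for a comparison. In the same pools Pgf was 0 CPM in peripheral Xbp1-KO cells and 361.2 CPM (23 UMIs) in mesenteric WT cells, both of library 1.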
